A study of Mus musculus with 8 samples.

Results

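The genes examined were 35 genes of glycolysis and the pentose phosphate pathway, chosen as a fixed list of symbols and followed across 4 groups of a mouse pre-B cell line. They cover glucose uptake, the steps from glucose to pyruvate, lactate production and export, the kinases that set the flow of pyruvate and fructose bisphosphate, the pentose phosphate branch and Txnip. Of the 35 genes, 33 passed the filter on dim probes and were tested among 21321 genes or annotated features. Eno2 was well above background on 2 of 8 arrays and Ldhb on 0 of 8, so neither was tested. The rule for membership is a list of symbols and uses no measured value, though the list was drawn up with earlier results of these data known.

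All 8 cultures were wk3 cells, an established mouse pre-B cell line with the genotype SLP-65-/-, which lacks an adaptor of pre-B cell receptor signalling and grows in interleukin 7 (IL-7). All carried a retroviral construct and had been selected with puromycin. The construct was a scrambled sponge in the control cells, or a sponge for the miR-15 family, a transcript that binds a microRNA family and keeps it from its other targets. RNA was taken from cells in excess IL-7 or 36 h after IL-7 was removed, the step used to start differentiation. Each of the 4 groups had 2 one-colour arrays, replicates 1 and 2, from separate experiments with clones made anew each time. A control without any sponge was not analysed here, and the extent of miR-15 family binding was not measured on the arrays.

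Glycolysis breaks glucose down to pyruvate and yields ATP, and Ldha turns pyruvate into lactate, which lets the pathway run fast in dividing cells. The pentose phosphate branch draws glucose 6-phosphate away to make NADPH and ribose for nucleotides. Dividing pre-B cells depend on IL-7 for growth and take up glucose under its signals, and small resting pre-B cells follow when the signal ends. Several steps have more than 1 gene for the same reaction, and such isozymes differ in tissue, kinetics and regulation.

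The miR-15 family is shown because the sponge was built against it. The 6 members share bases 2 to 8, the seed, in capitals, so a single sponge site can pair with all of them. The mature sequences, 5′ to 3′, are from RefSeq (GRCm38.p6).
mmu-miR-15a-5p: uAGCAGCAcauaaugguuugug
mmu-miR-15b-5p: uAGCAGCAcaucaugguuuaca
mmu-miR-16-5p: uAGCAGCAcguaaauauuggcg
mmu-miR-195a-5p: uAGCAGCAcagaaauauuggc
mmu-miR-497a-5p: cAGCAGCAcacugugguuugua
mmu-miR-322-5p: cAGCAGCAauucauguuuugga

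A match to this seed, TGCTGCT, was present in 1 of the 55 array probes for these genes, against 0.819% of all 55681 probes. It lies in the Aldoa probe, in these 30 of its 60 bases with the match in capitals. The rest of the transcripts was not searched, and a match in a probe does not show that a microRNA binds there.
Aldoa probe: cccatcactctTGCTGCTgccctcgtgtgc

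Signals are given as log2 of the processed signal minus the 75th percentile of its array, so that 0 is the 75th percentile and 1 unit is a factor of 2 in signal. Probes differ in how brightly they report, so levels are compared between groups for 1 gene, never between genes. Each change is a difference of log2 group means ± SE (limma, n = 2 arrays in a group), and genes with an adjusted p below 0.05 over all genes are said to be called. Of 59305 non-control spots, 50.6% to 56.6% exceeded background clearly on each array and 0 were saturated. The replicates of scrambled cells with IL-7 were the least alike, differing by over 1 log2 unit for 1160 genes, where those of other groups did so for 193 to 525. All arrays lay on 1 slide, and the IL-7 arrays filled one column of it, so slide position and IL-7 cannot be told apart. The scrambled arrays lay in rows 1 and 2 and the sponge arrays in rows 3 and 4, so position and construct cannot be told apart either. The probe of Blnk, the gene for SLP-65, was well above background on 8 of 8 arrays, and whether it lies in the deleted part was not tested.

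The first comparison asked how these genes respond to loss of IL-7 in control cells. Of the 33 tested genes, 17 fell, 3 rose and 13 were not called. Gapdh (brightest of 8 probes) and Pgk1 (its only probe), which catalyse consecutive steps of lower glycolysis, were 2.36-fold and 2.35-fold lower after 36 h. Both probes are placed off the chromosome of their gene by the deposited annotation. Tkt, Slc2a3 and Pdk3 were each at least 1 log2 unit lower. The lactate enzyme Ldha and the last enzyme of glycolysis, Pkm, fell by 0.86 and 0.77. Aldoa, Eno3 and Pdk1 rose by 0.64, 0.58 and 0.63, each beside another gene for the same reaction that fell. In bulk samples, fewer cells of a type and less RNA per cell cannot be told apart.

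The 17 falls and 3 rises make 60.6% called. Over all genes 48% were called, 28% lower and 19.9% higher. The median change was -0.37 over these genes and -0.04 over all genes. The scaling between arrays moved this result. With quantile normalization 13 fell and 5 rose, and the medians were -0.06 and 0.03. The calls for 12 genes held under every alternative and with each array left out. These were Slc2a3, Aldoa, Aldoc, Tpi1, Gapdh, Pgk1, Eno3, Pkm, Ldha, Pdk3, G6pdx and Tkt.

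**Figure D1:**
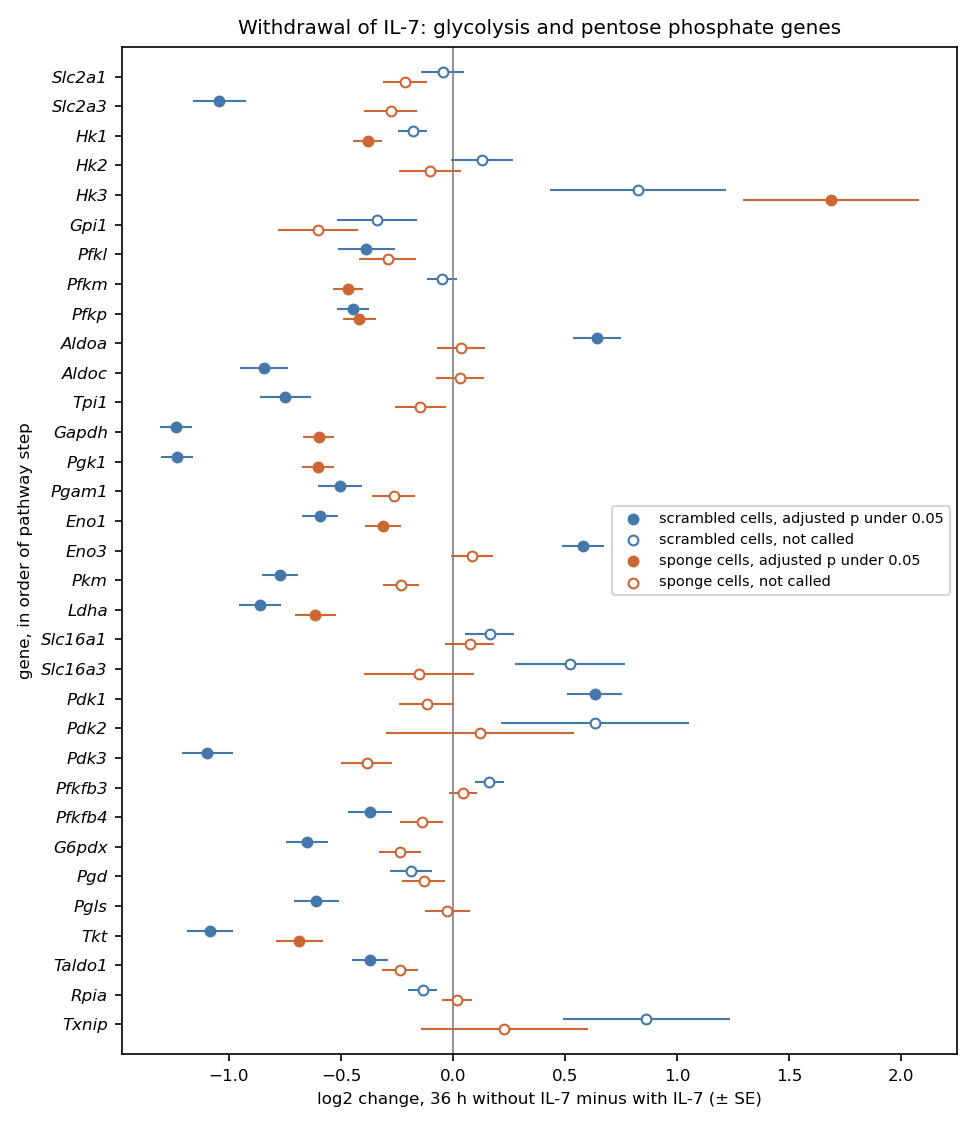
Log2 change from IL-7 to 36 h without IL-7 (x axis, ± SE) for the 33 tested genes in order of pathway step, in scrambled cells (blue) and sponge cells (orange), with filled points for an adjusted p under 0.05. Gapdh, Pgk1, Pdk3, Tkt and Slc2a3 lie farthest to the left in scrambled cells, and 28 of the 33 changes were smaller in size in sponge cells. The like count over all genes was not made. The Hk3 points rest on signals below background with IL-7.

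Glucose enters lymphocytes through the transporters encoded by Slc2a1 and Slc2a3. Slc2a1 signals were 1.44 and 1.48 in scrambled cells with IL-7 and 1.40 and 1.43 without. In sponge cells they were 1.63 and 1.85 with IL-7 and 1.58 and 1.47 without. The sponge arrays with IL-7 were the highest, and no comparison called Slc2a1. Slc2a3, the transporter of higher affinity, gave 1.16 and 1.17 in scrambled cells with IL-7 and 0.27 and -0.03 without. In sponge cells it gave 1.21 and 1.37 with IL-7 and 0.99 and 1.02 without. The scrambled arrays without IL-7 were the lowest of the 8 for Slc2a3 and did not overlap any other group. Slc2a3 fell by 1.04 ± 0.12 in scrambled cells (adjusted p = 0.0011).

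Hexokinases trap glucose in the cell as glucose 6-phosphate. Hk1 was well above background on all arrays, at 7.83 and 7.79 in scrambled cells with IL-7 and 7.64 and 7.62 without, and at 7.84 and 7.85 in sponge cells with IL-7 and 7.49 and 7.45 without. It was lower in both sponge arrays without IL-7 than in any other array. The change in scrambled cells, -0.18 ± 0.06, missed the threshold (adjusted p = 0.0647), and with quantile normalization it turned to 0.24 and was called (adjusted p = 0.0174). Hk2, the hexokinase most often linked to growth, gave -2.39 and -2.59 in scrambled cells with IL-7 and -2.52 and -2.21 without. The sponge arrays gave -2.18 and -2.11 with IL-7 and -2.15 and -2.35 without. The groups overlapped on withdrawal in both kinds of cell, and Hk2 was called in no comparison. Hk3 was not well above background on any array with IL-7 and was measured on 1 of 2 scrambled and 2 of 2 sponge arrays without it.

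From glucose 6-phosphate, Gpi1 makes fructose 6-phosphate, phosphofructokinases commit it to glycolysis, and aldolases split the product. Gpi1 was not called in any comparison on its brightest probe, with a change of -0.34 ± 0.18 in scrambled cells. Of the 3 phosphofructokinase genes, Pfkl and Pfkp fell by 0.39 ± 0.13 and 0.45 ± 0.07, and Pfkm had a change of -0.05 ± 0.07 that was not called. The Pfkl call was close to the threshold (adjusted p = 0.0485) and was lost without any one of the 4 scrambled arrays (adjusted p up to 0.154). The call for Pfkp (adjusted p = 0.00425) was lost with normexp background correction (adjusted p = 0.059).

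The 2 aldolase genes moved in opposite directions. Aldoa gave 5.07 and 5.03 in scrambled cells with IL-7 and 5.56 and 5.83 without, a rise of 0.64 ± 0.11 (adjusted p = 0.00472). In sponge cells Aldoa gave 4.51 and 4.65 with IL-7 and 4.61 and 4.63 without. Every sponge array was thus below every scrambled array. Aldoc gave 0.64 and 0.53 in scrambled cells with IL-7 and -0.13 and -0.38 without, and it fell by 0.84 ± 0.11 (adjusted p = 0.00164). The sponge arrays gave 0.84 and 0.73 with IL-7, and 0.85 and 0.78 after withdrawal. Only the scrambled arrays without IL-7 were below 0 for Aldoc. Tpi1, which interconverts the products of aldolase, gave 3.94 and 3.80 in scrambled cells with IL-7 and 3.14 and 3.11 without, and fell by 0.75 ± 0.11 (adjusted p = 0.00326).

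**Figure D2:**
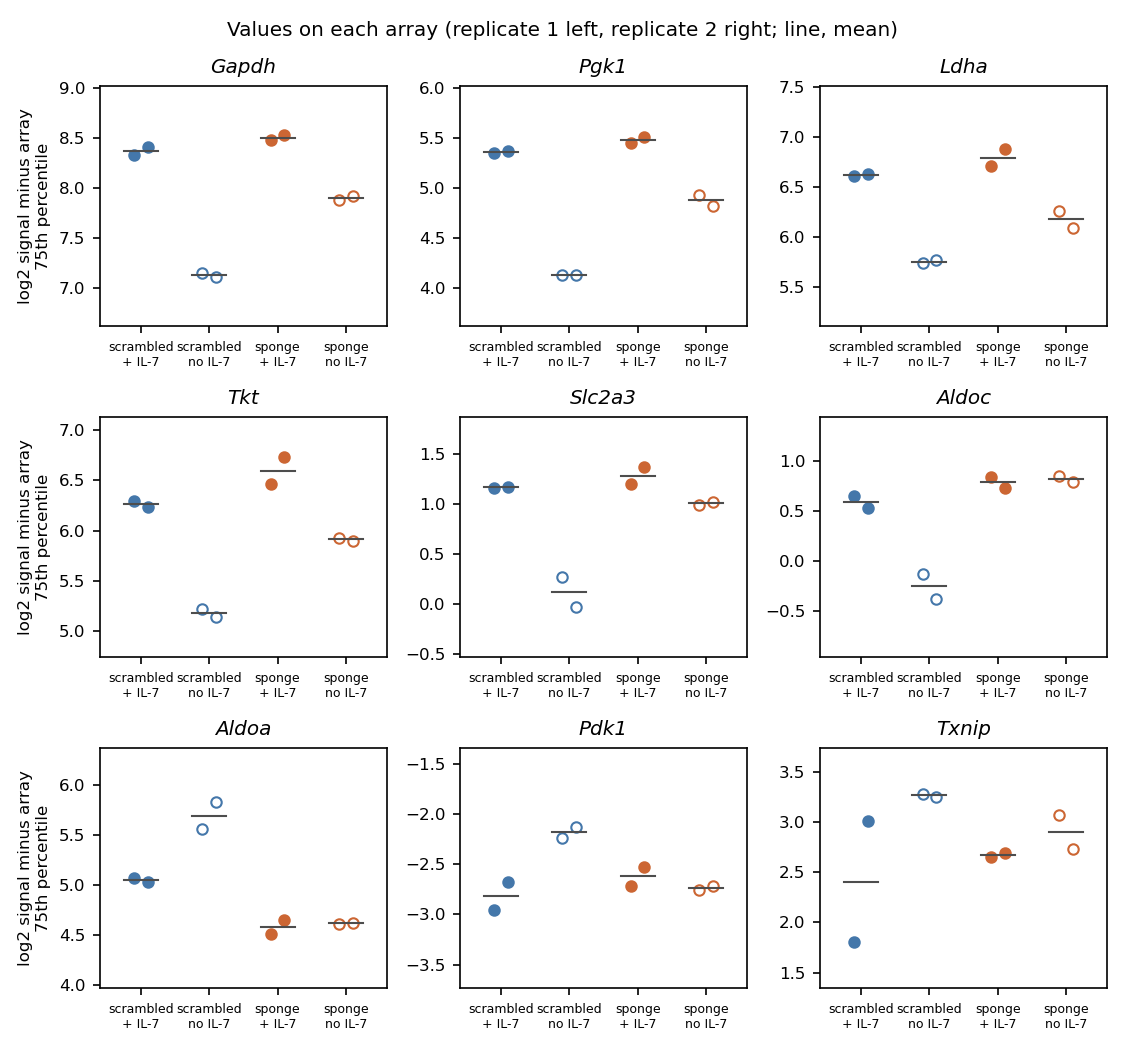
Log2 signal minus the array's 75th percentile (y axis, each panel spans the same range) on every array for 9 genes, with scrambled cells in blue, sponge cells in orange, filled points with IL-7, open points without, and a line at the mean of the 2 arrays. For Gapdh, Pgk1, Ldha and Tkt both sponge arrays without IL-7 lie between the scrambled arrays without IL-7 and the arrays with IL-7, and for Txnip the spread within scrambled cells with IL-7 is 1.80 to 3.01.

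Lower glycolysis, from Gapdh to Pkm, earns the ATP of the pathway, and all 6 of its tested genes were called in scrambled cells, 5 lower and 1 higher. Over all genes 48% were called, 28% lower and 19.9% higher. Gapdh gave 8.33 and 8.41 with IL-7 and 7.16 and 7.11 without. It fell by 1.24 ± 0.07 (adjusted p = 0.000239). Pgk1, the first enzyme that makes ATP here, gave 5.35 and 5.37 with IL-7, and 4.13 and 4.12 after withdrawal. Its fall of 1.23 ± 0.07 (adjusted p = 0.000252) was close in size to that of the brightest Gapdh probe. The 8 Gapdh probes changed by -1.78 to -1.24 in scrambled cells, and the brightest fell least. For both genes the replicates lay close together. Pgam1, a mutase, and Eno1, the common enolase, fell by 0.51 ± 0.10 and 0.59 ± 0.08. Eno3, the muscle enolase, rose by 0.58 ± 0.09 (adjusted p = 0.0041). Pkm, pyruvate kinase, gave 4.95 and 4.84 with IL-7 and 4.09 and 4.14 without, and fell by 0.77 ± 0.08 (adjusted p = 0.00082). The calls for Pgam1 and Eno1 were lost with quantile normalization (adjusted p = 0.0633 and 0.134).

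Ldha regenerates NAD+ by making lactate. In scrambled cells it gave 6.60 and 6.62 with IL-7 and 5.74 and 5.77 without. The groups did not overlap, and Ldha fell by 0.86 ± 0.09 (adjusted p = 0.000962). The lactate exporters Slc16a1 and Slc16a3 had differences of 0.16 ± 0.11 and 0.52 ± 0.25 on their brightest probes, neither of which was called. The only probe of Ldhb, the isozyme of oxidative tissues, was never well above background.

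The pyruvate dehydrogenase kinases Pdk1, Pdk2 and Pdk3 switch off entry of pyruvate into the mitochondrial cycle. Pdk1 gave -2.95 and -2.67 in scrambled cells with IL-7 and -2.24 and -2.12 without, and it rose by 0.63 ± 0.12 (adjusted p = 0.00766). Without scrambled replicate 2 of the withdrawn cells this call was lost (adjusted p = 0.0516), and with normexp background correction the rise was 0.25. In sponge cells Pdk1 gave -2.71 and -2.53 with IL-7 and -2.76 and -2.72 without, all below both scrambled arrays without IL-7. Pdk3 went the other way, from 1.12 and 1.39 to 0.14 and 0.18, a change of -1.10 ± 0.11 (adjusted p = 0.000803). The arrays of sponge cells gave 1.101 and 1.234 with IL-7 and 0.73 and 0.83 without for Pdk3. Pdk2 replicates lay far apart, at -4.66 and -3.53 in sponge cells without IL-7, and no change was called on the brightest probe. Pfkfb3 and Pfkfb4 make and remove the activator of phosphofructokinase. Pfkfb4 fell by 0.37 ± 0.10 (adjusted p = 0.0235), a call lost without any one of the 4 scrambled arrays (adjusted p up to 0.112). Pfkfb3 was not called in scrambled cells (0.16 ± 0.06).

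In the pentose phosphate pathway, 4 of 6 genes fell in scrambled cells and 0 rose, where 28% of all genes fell and 19.9% rose. G6pdx, which encodes the first and rate-limiting enzyme, gave 3.13 and 3.23 with IL-7 and 2.45 and 2.60 without, and fell by 0.65 ± 0.09 (adjusted p = 0.00257). The sponge arrays gave 2.88 and 3.03 with IL-7 and 2.71 and 2.73 without for G6pdx, a smaller gap that was not called. Tkt, the transketolase that links the branch back to glycolysis, gave 6.29 and 6.23 with IL-7 and 5.22 and 5.14 without, and fell by 1.08 ± 0.10 (adjusted p = 0.000661). Pgls and Taldo1 fell by 0.61 ± 0.10 and 0.37 ± 0.08, and Pgd and Rpia were not called. Quantile normalization took away the calls for Pgls (-0.12, adjusted p = 0.369) and Taldo1 (0.13, adjusted p = 0.189). The Taldo1 call was also lost without replicate 1 or 2 of the scrambled cells without IL-7 (adjusted p up to 0.0721).

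Txnip restrains glucose uptake and is induced by glucose metabolites. It gave 1.80 and 3.01 in scrambled cells with IL-7 and 3.28 and 3.25 without, and 2.65 and 2.70 in sponge cells with IL-7 and 3.07 and 2.74 without. Replicate 1 of the scrambled cells with IL-7 was the lowest of the 8 arrays. The change in scrambled cells was 0.86 ± 0.37 and was not called (adjusted p = 0.107).

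Among the 12 genes called throughout, the size was less fixed than the direction for the bright probes. With quantile normalization the change in scrambled cells was -0.82 for Gapdh, -0.36 for Ldha, -0.62 for Tkt and 1.02 for Aldoa. For Slc2a3, Aldoc and Pdk3 it was -1.02, -0.85 and -1.08.

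The second comparison gave the same withdrawal in cells with the miR-15 sponge. Gapdh, Pgk1, Ldha and Tkt again fell, by 0.60 to 0.69. Pfkm, Pfkp, Hk1 and Eno1 fell by 0.47, 0.42, 0.38 and 0.31. In all 8 of the 33 genes fell, against 22.7% called over all genes, 14.8% lower and 7.91% higher. Hk3 was also past the threshold, but it passed the filter only through the sponge arrays without IL-7 and was below background with IL-7, so it is not counted as a rise. The medians were -0.21 and -0.06. With quantile normalization 3 fell, and beside Hk3 only Pgls was called higher (0.40, adjusted p = 0.0456).

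In sponge cells Gapdh gave 8.48 and 8.53 with IL-7 and 7.89 and 7.92 without, a fall of 0.60 ± 0.07 (adjusted p = 0.00458). Pgk1 gave 5.45 and 5.51 with IL-7 and 4.93 and 4.82 without, a fall of 0.60 ± 0.07 (adjusted p = 0.005). For both genes the groups were well apart in each construct. Ldha gave 6.70 and 6.87 with IL-7 and 6.26 and 6.09 without, and fell by 0.61 ± 0.09 (adjusted p = 0.00897). Tkt gave 6.47 and 6.73 with IL-7 and 5.93 and 5.90 without, and fell by 0.69 ± 0.10 (adjusted p = 0.00901). With quantile normalization the falls of Gapdh, Ldha and Tkt were no longer called (-0.24, -0.20 and -0.29, adjusted p = 0.0958, 0.134 and 0.0736), and that of Pgk1 was (-0.33, adjusted p = 0.0183).

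Pfkm, the muscle phosphofructokinase, gave 0.17 and 0.19 in sponge cells with IL-7 and -0.32 and -0.26 without, and fell by 0.47 ± 0.07 (adjusted p = 0.00725). In scrambled cells it had stayed between 0.27 and 0.35 on all 4 arrays. Pfkp, the platelet form, gave 0.86 and 0.92 with IL-7 and 0.43 and 0.51 without (adjusted p = 0.0137). In scrambled cells it gave 0.67 and 0.70 with IL-7 and 0.20 and 0.28 without, a gap of like size. Eno1 gave 5.67 and 5.74 with IL-7 and 5.32 and 5.46 without in sponge cells (adjusted p = 0.0409), and 5.75 and 5.83 with IL-7 and 5.18 and 5.22 without in scrambled cells. The sponge call for Eno1 was lost with quantile normalization (-0.04, adjusted p = 0.761), under 3 other alternatives, and without any one sponge array or either scrambled array without IL-7 (adjusted p up to 0.179). The Hk1 call (adjusted p = 0.0125) ended with quantile normalization (0.04, adjusted p = 0.71). For Hk3 the signal with IL-7 is only a bound, and the arrays without IL-7 were at least 1.26-fold above it in sponge cells. Pkm gave 4.64 and 4.69 with IL-7 and 4.38 and 4.49 without and was not called (-0.23 ± 0.08, adjusted p = 0.0929).

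Single arrays carried much of this comparison. Without replicate 2 of the sponge cells with IL-7 there were 4 calls, Hk3 among them, and without replicate 2 of the sponge cells without IL-7 there were 3. Gapdh and Pgk1 kept their calls with each array left out (highest adjusted p = 0.0361 for Gapdh and 0.0382 for Pgk1).

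The design also asks whether withdrawal acts differently in the 2 kinds of cell. The changes in sponge cells were smaller in size for 28 of the 33 genes and for 17 of the 17 that had fallen in scrambled cells, whose median was -0.75 in scrambled and -0.28 in sponge cells. Those 17 were chosen by their change in scrambled cells, so this count is a description. How many of all genes changed less in sponge cells was not counted. Calls over all genes were also fewer there, 22.7% against 48% in scrambled cells. Among the 8 genes that fell in sponge cells, 6 changed less there and Hk1 and Pfkm changed more. The test of the difference itself, the sponge change minus the scrambled change, called 3 genes, 9.09%, against 5.72% of all genes, 4.8% with a positive and 0.919% with a negative difference.

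Those 3 were Aldoc, Gapdh and Pgk1. The difference was 0.88 ± 0.15 for Aldoc (adjusted p = 0.0368), which fell in scrambled cells and had a change of 0.03 ± 0.11 in sponge cells. It was 0.64 ± 0.10 for Gapdh (adjusted p = 0.0312) and 0.63 ± 0.10 for Pgk1 (adjusted p = 0.0332), whose falls were smaller in sponge cells. Pkm (0.54, adjusted p = 0.0537), Slc2a3 (0.76, adjusted p = 0.0593), Pfkm (-0.42, adjusted p = 0.0624), Pdk3 (0.71, adjusted p = 0.0629) and Pdk1 (-0.75, adjusted p = 0.0663) missed the threshold. With replicate number as a block, the call for Aldoc held (adjusted p = 0.0466) and those for Gapdh (0.0504) and Pgk1 (0.0551) did not. All 3 calls were lost without scrambled replicate 1 with IL-7, either sponge replicate with IL-7, scrambled replicate 2 without IL-7 or either sponge replicate without IL-7. Without scrambled replicate 2 with IL-7 there were 6 calls.

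**Figure D3:**
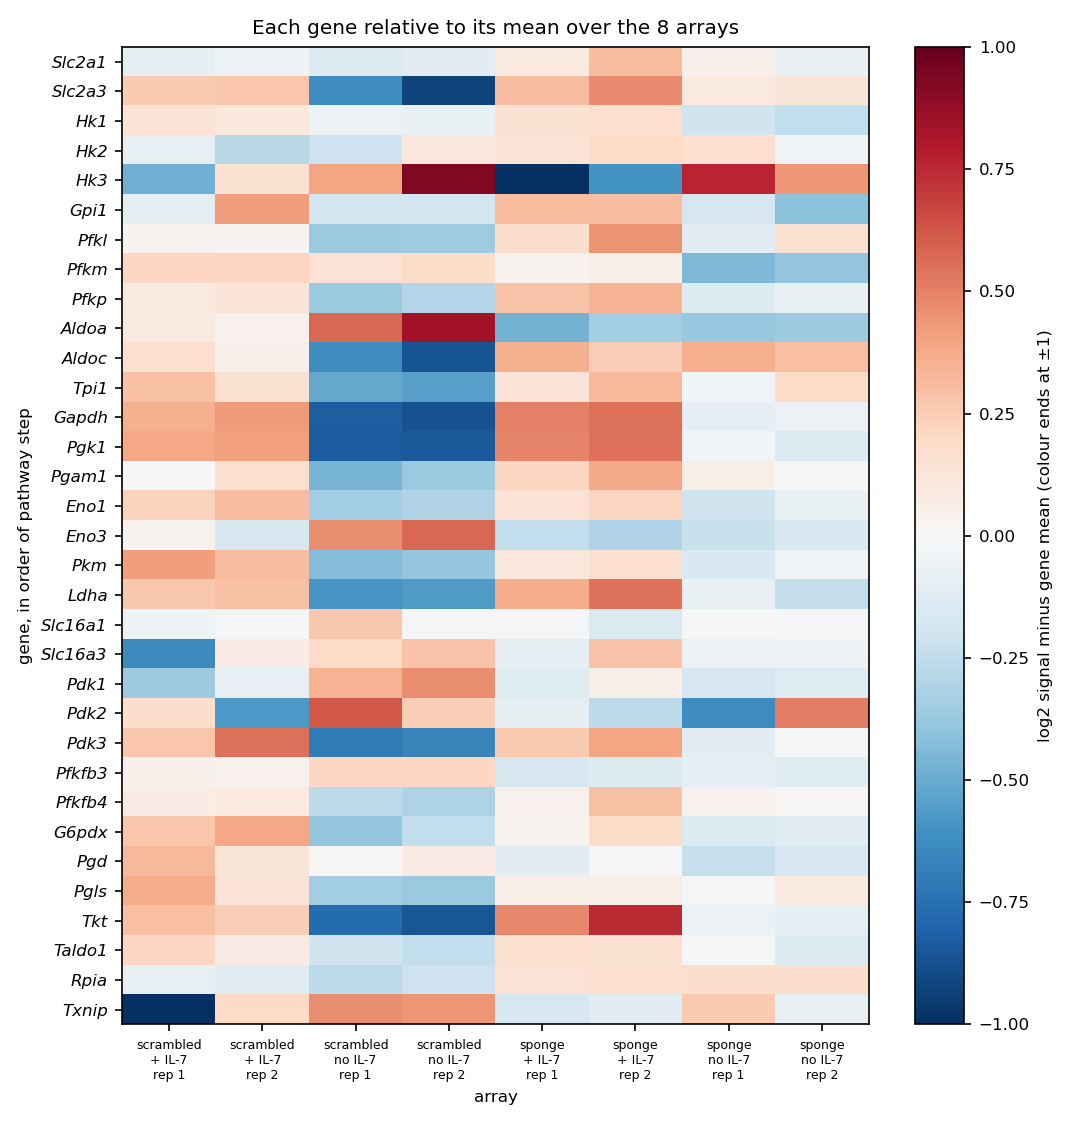
Log2 signal of each of the 33 tested genes (rows, in order of pathway step) on each of the 8 arrays (columns), minus the mean of the gene over the arrays, with the colour scale ending at 1 unit either way. The 2 arrays of scrambled cells without IL-7 are the lowest for Slc2a3, Aldoc, Gapdh, Pgk1, Ldha and Tkt and the highest for Aldoa, Eno3 and Pdk1.

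Sponge and scrambled cells were also compared directly. With IL-7 present, 0 of the 33 genes were called, against 1.1% of all genes, 0.286% higher and 0.816% lower, and the smallest adjusted p was 0.113, for Aldoa (-0.47 ± 0.11). At an unadjusted p under 0.05 there were 10 of these genes, against 19.2% of all genes. Leaving out scrambled replicate 2 with IL-7 gave 1 call.

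Without IL-7, 12 of the 33 genes were higher in sponge than in scrambled cells, 5 were lower and 16 were not called. Aldoc, Slc2a3, Gapdh, Pgk1, Tkt, Pdk3 and Tpi1 were higher by 1.07, 0.88, 0.77, 0.75, 0.74, 0.62 and 0.61. Aldoa, Eno3, Pfkm, Pdk1 and Pfkfb3 were lower, by 1.08, 0.71, 0.58, 0.56 and 0.31. The called genes were 51.5% of the 33, against 31.7% called over all genes, 17% higher and 14.7% lower. The medians were 0.19 and -0.04. This comparison and withdrawal in scrambled cells share the scrambled arrays without IL-7, so their opposite signs are not separate evidence. Of the 17 genes that fell in scrambled cells, 11 were higher here, and all 3 that rose there were lower here.

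Aldoc and Aldoa were the farthest apart, at 1.07 ± 0.11 (adjusted p = 0.00154) and -1.08 ± 0.11 (adjusted p = 0.00157). Slc2a3 was higher by 0.88 ± 0.12 (adjusted p = 0.00353), Gapdh by 0.77 ± 0.07 (adjusted p = 0.00131), Pgk1 by 0.75 ± 0.07 (adjusted p = 0.00146) and Tkt by 0.74 ± 0.10 (adjusted p = 0.00429). For each of these 6 genes the arrays of the 2 groups did not overlap. They were picked from called genes without overlap of the groups, by the size of their change. The lack of overlap was thus fixed by the choice, and its share over all genes was not counted. The other genes called higher were Pgam1 (0.45), Ldha (0.42), Rpia (0.41), Pgls (0.40) and Pkm (0.32). Rpia makes ribose 5-phosphate, and it gave 3.03 on both sponge arrays without IL-7, and 2.60 and 2.65 in scrambled cells. With IL-7 Rpia gave 3.00 and 3.03 in sponge cells and 2.78 and 2.74 in scrambled cells, a gap of 0.26 that was not called. The difference of its withdrawal effects was 0.15 and was not called. Rpia was called here and in no other comparison.

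The count of calls without IL-7 rested on all 4 arrays compared. It was 9 without scrambled replicate 1, 9 without scrambled replicate 2, 11 without sponge replicate 1 and 10 without sponge replicate 2. Aldoa, Aldoc, Eno3, Gapdh, Pfkm, Pgk1, Rpia, Slc2a3 and Tkt were called in each of these and under every other alternative.

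Isozymes of the same step were set against each other within each array, where subtraction of the array's 75th percentile cancels. Quantile normalization does not cancel in such a ratio. Of 13 listed pairs, 11 had both genes measured. In scrambled cells 5 of the 11 pair ratios were called on withdrawal, where 48% of all single genes were called. Ratios of other gene pairs were not computed, so no like share stands beside the counts of pairs. Pdk3 against Pdk1 fell by 1.73 ± 0.07 (adjusted p = 0.000216), Aldoc against Aldoa by 1.49 ± 0.18 (adjusted p = 0.00139), Slc2a3 against Slc2a1 by 1.00 ± 0.12 (adjusted p = 0.00158) and Pfkfb4 against Pfkfb3 by 0.53 ± 0.09 (adjusted p = 0.00536). Eno3 against Eno1 rose by 1.17 ± 0.11 (adjusted p = 0.000628). These 5 calls held under every alternative and with each array left out.

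Relative to the mean of scrambled cells with IL-7, the Pdk3 to Pdk1 log ratio was -1.69 and -1.76 in scrambled cells without IL-7. It was -0.26 and -0.31 in sponge cells with IL-7 and -0.58 and -0.52 without. Every sponge array lay nearer the control level than either scrambled array without IL-7. On the same scale the Aldoc to Aldoa log ratio was -1.23 and -1.74 in scrambled cells without IL-7, 0.79 and 0.54 in sponge cells with IL-7 and 0.70 and 0.62 without. The withdrawn scrambled cells were below, and all sponge arrays above, scrambled cells with IL-7. The Eno3 to Eno1 log ratio was 1.14 and 1.21 in scrambled cells without IL-7, and in sponge cells -0.06 and -0.19 with IL-7 and 0.30 and 0.25 without.

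In sponge cells the withdrawal called Pdk3 against Pdk1 (-0.27 ± 0.07, adjusted p = 0.0441), a call lost with each array left out in turn (adjusted p up to 0.162). Hk3 against Hk1 was also past the threshold, but Hk3 has only a bound with IL-7, so its ratio is not given. The difference between sponge and scrambled withdrawal was called for 4 of the 11 pairs, and for 5.72% of all single genes. It was 1.48 ± 0.25 for Aldoc against Aldoa (adjusted p = 0.0362), 1.46 ± 0.10 for Pdk3 against Pdk1 (0.0279), 0.93 ± 0.18 for Slc2a3 against Slc2a1 (0.0431) and -0.77 ± 0.16 for Eno3 against Eno1 (0.0493). None of these 4 was called with every array left out in turn, and the largest adjusted p were 0.13, 0.12, 0.13 and 0.182. With the replicate block, Slc2a3 against Slc2a1 (0.0666) and Eno3 against Eno1 (0.0634) were not called.

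Without IL-7, 6 of the 11 pair ratios differed between sponge and scrambled cells, where 31.7% of all single genes were called. Aldoc against Aldoa was higher by 2.15 ± 0.18 (adjusted p = 0.00127) in sponge cells, Pdk3 against Pdk1 by 1.18 ± 0.07 (adjusted p = 0.00107), Slc2a3 against Slc2a1 by 0.77 ± 0.12 (adjusted p = 0.00656) and Pfkfb4 against Pfkfb3 by 0.63 ± 0.09 (adjusted p = 0.00498). Eno3 against Eno1 was lower by 0.90 ± 0.11 (adjusted p = 0.00272) and Pfkm against Pfkl by 0.97 ± 0.11 (adjusted p = 0.00229). All 6 calls held under every alternative and with each array left out. With IL-7, 0 pairs were called, where 1.1% of all single genes were called.

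**Figure D4:**
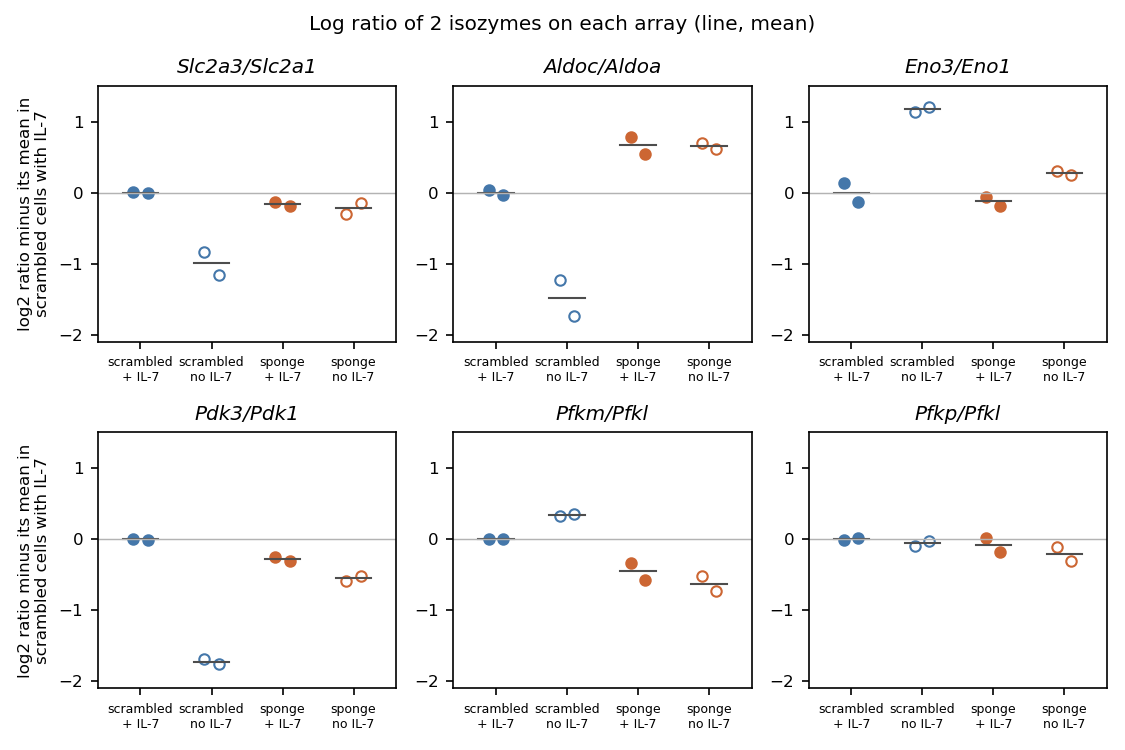
Log2 ratio of 2 genes for the same step on every array (y axis), relative to its mean in scrambled cells with IL-7, with filled points for cells with IL-7, open points without, and a line at the group mean. The arrays of scrambled cells without IL-7 stand apart for the 4 pairs Slc2a3/Slc2a1, Aldoc/Aldoa, Eno3/Eno1 and Pdk3/Pdk1. They are also the highest for Pfkm/Pfkl, at 0.32 and 0.35, though the withdrawal change of that ratio in scrambled cells was not called. The Pfkp/Pfkl ratio was not called in any comparison.

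Several probes for 1 gene gave a check within the arrays, for 10 of the genes. The 8 probes of Gapdh changed by -1.78 to -1.24 in scrambled cells and by -0.81 to -0.58 in sponge cells, and all 8 were called in both. The probe that stands for Gapdh, the brightest, gave the smallest fall in scrambled cells. The deposited annotation places it on chr7:59003199-59003257 (mm9, plus strand) and another Gapdh probe on chromosome 8, whereas the gene and the other 6 probes lie on chromosome 6. The only Pgk1 probe is placed on chr3:57906830-57906894 (mm9, minus strand), not on the X chromosome of the gene, so signal from processed copies of Gapdh and Pgk1 cannot be told apart from that of the genes on these probes. Ldha was called on 3 of 3 probes in both withdrawals. For Gpi1, 2 of 3 probes were called lower in each withdrawal, and the brightest probe was not. The 3 probes of Hk1 disagreed in sponge cells, from -0.38 to -0.04, with 1 called. The second probe of Pfkp had a change of -0.02 in sponge cells, where the first had -0.42. The probes of Txnip gave 0.86 and 0.31 in scrambled cells, neither called, and the dimmer one was called higher in sponge cells (0.48, adjusted p = 0.0356). The dimmer probes of Pdk2 (1.30, adjusted p = 0.0381, not well above background on any array with IL-7) and Slc16a3 (0.36, adjusted p = 0.0448) were called higher in scrambled cells, where the brightest probes were not. Whether probes lie in exons or untranslated regions was not assigned, since no transcript annotation of mm9 was used here.

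**Figure D5:**
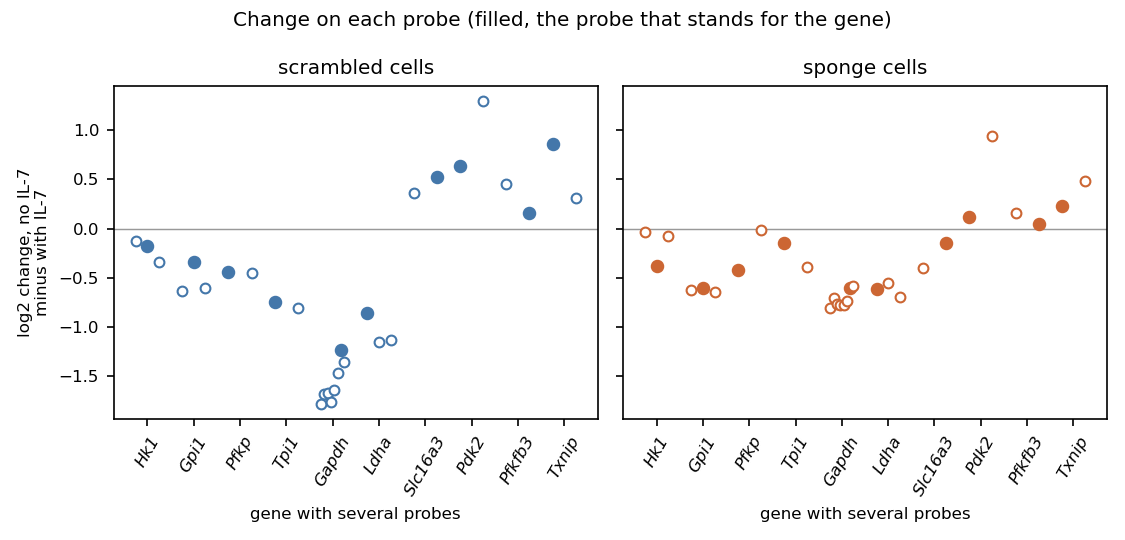
Log2 change on withdrawal of IL-7 (y axis) for each kept probe of the 10 genes with several probes, in scrambled cells (left) and sponge cells (right), with the brightest probe, which stands for the gene, filled. The 8 Gapdh probes lie between -1.78 and -1.24 in scrambled cells and between -0.81 and -0.58 in sponge cells.

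Promoters are shown because 17 of the 33 tested genes fell in scrambled cells, where 3 rose and 13 were not called. The RefSeq table (GRCm38.p6) holds promoters of 34 of the 35 genes. Each is 300 bases, 250 before the start and 50 after, and the 34 genes have 49 of them. The motif CACGTG, the E-box read by MYC, MAX and the glucose-responsive Mlx family, was present on either strand in 10.2% of the 49 and in 7.15% of all 32851 promoters. ACGTG, the core of the hypoxia response element, which also lies within CACGTG, was present in 42.9% against 19.6%. GCGTG, the other form of that core, was present in 59.2% against 32.4%. TTCNNNGAA, the STAT5 motif, was present in 4.08% against 8.3%. These are counts of letters, and binding was not measured.

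Among genes that fell in scrambled cells, 8 of 16 with a promoter had ACGTG, against 1 of 3 that rose and 9 of 13 that were not called. GCGTG was present in 13 of 16, 2 of 3 and 8 of 13. CACGTG was present in 1 of the 16, Ldha. The 250 bases before the start are printed for 2 genes that fell, Ldha and Pgk1, and 2 that rose, Aldoa and Pdk1, on the strand of the gene with the motifs in capitals. The Ldha sequence is chr7:46845554-46845803 (plus strand), with 2 CACGTG and 1 further ACGTG. That of Pgk1 is chrX:106186850-106187099 (plus strand), with 2 ACGTG. The Aldoa sequence, chr7:126799255-126799504 (minus strand), belongs to the second of its start sites and has 1 ACGTG. The Pdk1 sequence is chr2:71872974-71873223 (plus strand), from its first start site, with 1 GCGTG. No single motif was present in all of the printed sequences. Those of Ldha, Pgk1 and Aldoa held the core of the hypoxia response element, and that of Pdk1 held only its other form. The first start site of Aldoa and the second of Pdk1 held neither form. Whether any motif goes with the direction of change was not tested.
Ldha: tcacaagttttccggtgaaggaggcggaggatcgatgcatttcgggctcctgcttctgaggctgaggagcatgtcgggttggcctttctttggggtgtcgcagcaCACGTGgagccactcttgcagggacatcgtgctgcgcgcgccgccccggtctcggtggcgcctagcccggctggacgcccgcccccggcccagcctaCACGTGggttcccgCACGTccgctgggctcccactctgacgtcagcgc
Pgk1: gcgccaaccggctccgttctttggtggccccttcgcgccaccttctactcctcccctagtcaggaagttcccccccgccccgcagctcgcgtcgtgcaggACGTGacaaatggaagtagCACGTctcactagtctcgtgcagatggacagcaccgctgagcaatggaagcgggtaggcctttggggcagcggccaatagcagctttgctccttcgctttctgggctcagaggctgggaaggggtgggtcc
Aldoa: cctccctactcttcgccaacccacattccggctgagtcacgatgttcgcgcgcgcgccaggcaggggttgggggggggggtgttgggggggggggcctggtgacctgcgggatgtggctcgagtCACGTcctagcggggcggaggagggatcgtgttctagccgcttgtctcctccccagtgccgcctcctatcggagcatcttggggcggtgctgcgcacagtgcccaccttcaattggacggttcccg
Pdk1: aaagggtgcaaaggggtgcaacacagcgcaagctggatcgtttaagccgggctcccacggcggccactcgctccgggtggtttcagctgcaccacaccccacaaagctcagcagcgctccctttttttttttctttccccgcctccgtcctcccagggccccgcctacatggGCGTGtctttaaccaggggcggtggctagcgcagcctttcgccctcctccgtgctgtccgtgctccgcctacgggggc

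A list of 59 genes of the same and neighbouring steps, none of them among the 35, gave 45 tested genes. In scrambled cells 15 of these fell and 6 rose on withdrawal, 46.7% called, against 48% of all genes. The falls were led by Myc, a growth regulator that activates many glycolysis genes (-2.69 ± 0.08, adjusted p = 0.000217), Gapdhs, the sperm form of Gapdh (-1.25), Prps1, which turns ribose 5-phosphate into the precursor of nucleotides (-1.14), and Pdp1, the phosphatase that opposes the Pdk kinases (-1.10). The rises were led by Mlxip, a glucose-sensing partner of Mlx (1.43 ± 0.11, adjusted p = 0.000363), Slc2a6 and Slc2a8, transporters of the Slc2a family (1.41 and 0.79), and Mlxipl (0.65). In sponge cells 8 fell and 2 rose, 22.2% called against 22.7% of all genes, with Myc at -1.57 ± 0.08 (adjusted p = 0.0017), Prps1 at -0.59, Pdp1 at -0.51, Fbp1 at -0.48, Mlxip at 0.69 and Slc2a8 at 0.50.

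With IL-7, 0 of the 45 were called between the constructs, against 1.1% of all genes. Without IL-7, 11 were higher in sponge cells and 8 lower, 42.2% called against 31.7% of all genes. Myc (1.05 ± 0.08, adjusted p = 0.00122), Pdp1 (0.88), Gapdhs (0.82) and Prps1 (0.74) were higher. Slc2a6 (-1.15), Mlxip (-0.995), Gpd1 (-0.67) and Pdha1 (-0.57) were lower. The difference of withdrawal effects was called for Gapdhs (1.64 ± 0.32, adjusted p = 0.0463) and Myc (1.12 ± 0.12, adjusted p = 0.028), 4.44% of the 45, against 5.72% of all genes.

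The labelled cell type was checked against markers. All 15 B lineage precursor markers, among them Cd79a, Pax5, Ebf1, Vpreb1, Igll1 and Il7r, were well above background on 8 of 8 arrays. Of other lineages, Cd3g, Thy1, Ncr1, Ly6g, Col1a1, Col3a1, Pdgfra and Dcn were well above background on 0 arrays. From the same lists Cd3e, Cd4, Lck, Csf1r, Itgam, Elane, Klrb1c, Gzma, Nkg7, Epor and Col1a2 were well above background on 8 of 8 arrays, with Itgam at 3.58 to 4.71 and Lck at 3.12 to 3.92. The summed signal of 8 myeloid markers, in units of the 75th percentile, was 16.3 to 21.6 in scrambled cells with IL-7, 27.1 to 27.4 without, 14.0 to 18.2 in sponge cells with IL-7 and 18.0 to 18.5 without, against 2155 to 2568 for the 15 B lineage markers over all arrays. For 7 T cell markers it was 17.1 to 17.9, 19.4 to 19.6, 13.6 to 14.0 and 13.8 to 14.1. The sums of 5 NK cell and 5 stromal markers were at most 3.58 and 0.174 on any array. The myeloid and T cell sums were highest in scrambled cells without IL-7, and their part in the changes of the glycolysis genes was not tested. The B lineage sum was highest there too, at 2534 to 2568. It was 2339 to 2461 in scrambled cells with IL-7, and 2155 to 2336 with IL-7 and 2208 to 2237 without in sponge cells.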

How the data were processed

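RNA from 8 cultures was measured on 8 one-colour Agilent arrays. The deposited scanner files hold the intensity of each spot, with background subtracted by Feature Extraction (version 10.7.1.1 per the submitters' processing notes, 10.7.3.1 per the file headers), and probe positions on mm9 per the file headers. A deposited value table of the same arrays also holds intensity, with the same distribution on every array, and the software behind it is not given in the sources used here.

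The processed intensity was put on a log2 scale, each array's 75th percentile over non-control spots without outlier marks was subtracted, and spots of a probe were averaged. Probes that Feature Extraction marked well above background on both arrays of any group were kept (30965 of 55681), and the brightest kept probe stood for its gene. Group means of all 8 arrays were fitted with limma 3.58.1 in R 4.3.3 (4 residual and 1.838 prior degrees of freedom), with Benjamini-Hochberg adjustment over 21321 genes and a threshold of 0.05. The p-values rest on the spread between the 2 cultures of a group, pooled over all 4 groups. The spread of groups outside a comparison thus enters its p-values too, and the small number of arrays limits precision. The fitting steps were tested on simulated data.

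Members and gene lists were chosen with earlier results of these data known. Array values are given for genes called in a comparison without overlap of groups, up to 10 for each withdrawal and 6 for each other comparison, and always for Slc2a1, Hk2, Gapdh, Pkm, Ldha, Pdk1, G6pdx and Txnip. Of the related list, up to 4 called genes in each direction are named. Replicate numbers mark 2 separate experiments by the study's description. Deviations of same-numbered arrays correlated at 0.0177 to 0.131, over 0.1 in 2 of 6 pairs of groups, so the pairing rests on that description. Alternatives were quantile normalization, normexp background correction (offset 50), the deposited table, no filter, a filter on all 8 arrays, the mean over probes, a replicate block, the compared groups alone, and each array left out. Sequences came from RefSeq tables (GRCm38.p6). Some marker genes are not reported here.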

Additional observations from a re-analysis of the deposited data

Results flagged for a closer look

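The difference between the withdrawal effects in sponge and scrambled cells was called for 3 of the 33 genes, 9.09%, and 4 of the 11 isozyme ratios. The test was that of the difference itself in limma, which called 5.72% of all genes. No like share was computed for ratios. Aldoc is also part of the Aldoc/Aldoa ratio, so the calls are not all separate results. The difference, sponge change minus scrambled change on the log2 scale, was 0.88 for Aldoc, 0.64 for Gapdh and 0.63 for Pgk1. For the ratios it was 1.48 for Aldoc/Aldoa, 1.46 for Pdk3/Pdk1, 0.93 for Slc2a3/Slc2a1 and -0.77 for Eno3/Eno1. None of these 7 calls, genes and ratios alike, held with each array left out in turn.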

How the results depend on the processing

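Counts of glycolysis and pentose phosphate genes called, with each array left out in turn, were 16 to 20 for scrambled withdrawal (20 with all arrays), 3 to 11 for sponge withdrawal (9, Hk3 among them), 0 to 1 between constructs with IL-7 (0), 9 to 17 without IL-7 (17) and 0 to 6 for the difference (3). For isozyme ratios they were 5 to 7, 0 to 2, 0 to 0, 6 to 6 and 0 to 3. Over all genes they were 6784 to 10344, 1688 to 5072, 38 to 1363, 3388 to 7343 and 0 to 1657. Sponge withdrawal called 5 of the 33 genes with quantile normalization and 5 with the deposited table. It called 1 ratio in place of 2 with either of these, normexp, no filter, the replicate block or the compared groups alone. The ratio left was Hk3 against Hk1, and Hk3 has only a bound with IL-7. With no filter, sponge withdrawal called 2519 of all genes in place of 4838. Between constructs with IL-7, all genes called went from 235 to 385 with normexp, 82 with no filter, 387 with the filter on all 8 arrays, 147 with the replicate block and 4 with the compared groups alone. For the difference, the 3 genes became 6 with quantile normalization, 5 with normexp, 6 with the deposited table, 0 with no filter, 9 with the filter on all 8 arrays and 1 with the replicate block. All genes called for it went from 1219 to 0 with no filter and 702 with the block, and the 4 ratios to 2 with normexp, 0 with no filter and 2 with the block. Signs turned with quantile normalization and with the deposited table for Hk1 (0.24 and 0.24 in scrambled cells, 0.036 and 0.036 in sponge cells), Taldo1 (0.13 and 0.13 in scrambled cells, 0.20 and 0.20 in sponge cells), Pgls in sponge cells (0.40 and 0.40) and, in scrambled cells, the uncalled Gpi1 (0.16 and 0.16), Rpia (0.0035 and 0.0035) and Slc2a1 (0.037 and 0.037). Over all genes, scrambled withdrawal called 4253 higher and 5980 lower, against 5259 and 4955 with quantile normalization and 5253 and 4960 with the deposited table. Sponge withdrawal called 1687 and 3151, against 2087 and 1961 with quantile normalization. The cause was not tested. Dim probes limit Hk3, Eno2 and Ldhb.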
